A study of Mus musculus with 4 samples.

Results

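Complement is a cascade of serum and tissue proteins that marks cells and debris for removal and punctures membranes. The classical pathway starts when C1q engages the proteases C1r and C1s, which cut C4 and C2 into an enzyme that splits C3, the shared hub of all pathways. The alternative pathway amplifies C3 cleavage through factors B and D, and the terminal components, C7 among them, assemble the membrane pore. The liver makes most circulating complement, and fibroblasts of many tissues make several components locally. Reported here are 9 complement genes chosen by name out of 28001 features shared by all files: C1ra and C1s1 (the C1r and C1s proteases), Serping1 (C1 inhibitor, which blocks them), C4b and C2, C3, Cfb (factor B), Cfd (factor D) and C7. Each had 1 row in every table.

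The genes were followed in 4 droplet single-cell libraries of sorted mouse heart cells, all on a C57BL/6 background, with ages not given in the labels. One library held Hic1 CreERT2 tdTomato+ cells pooled from 3 hearts, taken 7 days after the left anterior descending (LAD) coronary artery was tied off as a model of myocardial infarction. Another held the same kind of cells from 3 pooled undamaged hearts. This genotype labels cells in which the Hic1 promoter drove the inducible Cre, and their descendants. The citrine library was made of Hic1 citrine+ cells from 3 undamaged hearts, each marked with an antibody hashtag. The PDGFRa library was made of PDGFRa H2BGFP+ cells (B6.129S4-Pdgfratm11(EGFP)Sor/J, a nuclear reporter of the Pdgfra locus) from 4 hashed hearts, 2 undamaged and 2 ligated, and the labels used here do not say which hashtag is which. Each condition was thus 1 library, and no difference between libraries could be set against replicate error. Cells kept after filtering numbered 4263 in the ligated and 2786 in the undamaged tdTomato library, 10838 in the citrine library and 12567 in the PDGFRa library, with median depths of 3668, 3453, 8038.5 and 7729 UMIs (unique molecules counted) per cell. Fibroblast-like cells, named from fixed markers such as Col1a1, Dcn and Pdgfra, numbered 3139, 2393, 10454 and 12502. Pericyte-like cells (Rgs5, Kcnj8) numbered 797, 178 and 190 in the first 3 libraries and smooth-muscle-like cells (Myh11, Acta2) 327, 160 and 30, while no PDGFRa cluster took these names. Macrophage and monocyte markers summed to between 8.67 and 14.8 CPM (UMIs of the gene per 1000000 UMIs of the class) in the fibroblast-like cells of a library, with 0 to 5 of the 12 markers at 0. Cell barcodes shared between libraries numbered 35 for the citrine and PDGFRa pair, 8 for the tdTomato pair and at most 2 for the others.

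The 9 genes lie on 5 chromosomes. On mm10, C1ra spans chr6:124512405-124523443 on the plus strand and C1s1 spans chr6:124530345-124542359 on the minus strand, with 6901 bases between them. C2 and Cfb lie 85 bases apart on the minus strand of chromosome 17, at chr17:34862604-34898265 and chr17:34856374-34862518, with C4b nearby at chr17:34728380-34743882. C3 lies further along at chr17:57203970-57228136, Serping1 at chr2:84765387-84775444, C7 at chr15:4988762-5063740 and Cfd at chr10:79890853-79892655. All 9 are protein-coding genes. RefSeq promoters (GRCm38.p6, 250 bases before to 50 after the start) were listed for 5 of the 9. The 4 printed here belong to the C1 protease pair, whose ratio differed between cell classes, and to C3 and C7, which changed in opposite directions in activated-like citrine cells. Capitals mark matches, on either strand, to TTGCNNAA (a C/EBP-type half-site pair) or TTCNNNGAA (the GAS core bound by STAT factors).
C1ra: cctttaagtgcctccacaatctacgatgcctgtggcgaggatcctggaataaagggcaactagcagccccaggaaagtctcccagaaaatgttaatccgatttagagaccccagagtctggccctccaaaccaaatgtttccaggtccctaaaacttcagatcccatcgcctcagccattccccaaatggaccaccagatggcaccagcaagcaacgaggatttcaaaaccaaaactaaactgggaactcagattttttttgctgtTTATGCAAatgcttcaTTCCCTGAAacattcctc
C1s1: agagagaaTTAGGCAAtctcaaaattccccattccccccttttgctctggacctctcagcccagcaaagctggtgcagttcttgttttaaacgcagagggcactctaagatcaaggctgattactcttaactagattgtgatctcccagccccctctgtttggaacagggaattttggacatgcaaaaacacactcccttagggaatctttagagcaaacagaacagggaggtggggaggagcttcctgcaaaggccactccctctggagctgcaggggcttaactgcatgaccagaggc
C3: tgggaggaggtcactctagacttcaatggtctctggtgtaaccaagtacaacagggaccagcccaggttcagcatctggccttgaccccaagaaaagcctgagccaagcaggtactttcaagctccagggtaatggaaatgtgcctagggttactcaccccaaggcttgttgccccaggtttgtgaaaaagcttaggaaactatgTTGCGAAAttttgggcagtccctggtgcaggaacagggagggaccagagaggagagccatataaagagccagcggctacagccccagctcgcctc
C7: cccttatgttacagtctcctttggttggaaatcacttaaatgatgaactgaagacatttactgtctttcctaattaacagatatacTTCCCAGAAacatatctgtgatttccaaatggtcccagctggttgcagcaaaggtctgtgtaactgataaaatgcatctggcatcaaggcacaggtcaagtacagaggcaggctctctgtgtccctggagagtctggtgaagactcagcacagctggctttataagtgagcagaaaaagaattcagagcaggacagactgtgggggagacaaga

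These windows are chr6:124512371-124512670 (plus) for C1ra, chr6:124542310-124542609 (minus) for C1s1, chr17:57228087-57228386 (minus) for C3 and chr15:5063724-5064023 (minus) for C7. TTGCNNAA occurred in 10.8% of the 32851 promoters listed. Within the member promoters it began at position 16 in C1ra, -242 in C1s1 and -45 in C3 relative to the RefSeq start of the window. For C1ra this start differs from that of the gene span given above, which begins at 124512405, so most of its window lies inside that span. The C7 start differs as well: its span, on the minus strand, ends at 5063740, so only a small part of its window lies inside. TTCNNNGAA occurred in 8.30% of promoters and began at 32 in C1ra and -164 in C7. The core of the interferon-stimulated response element, a pair of GAAA words with any 2 bases between them, present in 3.44% of promoters, had no match in the 6 member windows. A second listed C1s1 window and the Cfd window held no match to any of the 3 motifs.

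Counting reads near transcript ends left some members uncertain. Of the 351 words of 50 bases in the last 400 bases of the Cfb transcript, 89.2% also occur in Gm20547, an annotated gene that overlaps Cfb and C2. For C4b, 46.4% of such words occur in its near-copy C4a, which was not analysed here. For C1s1, 23.1% occur in C1s2, while C1ra, C2, C3, Cfd, Serping1 and C7 shared no such word with another gene. Levels of Cfb, C4b and C1s1 are therefore uncertain to the extent that counting split or dropped shared reads.

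Across cell classes, fibroblast-like cells had the highest levels of C3, C4b and C7 among the 3 named classes of each library, while the C1 proteases and their inhibitor were read in pericyte-like and smooth-muscle-like cells as well. C3 stood at 466 CPM (exact Poisson 95% interval 455 to 477, which like all such intervals here covers counting error only) in fibroblast-like cells after ligation, against 43.4 CPM (35.4 to 52.6) in pericyte-like and 21.3 CPM (13.4 to 32.3) in smooth-muscle-like ones. In the undamaged tdTomato library C3 stood at 476 CPM in fibroblast-like, 10.2 CPM in pericyte-like and 23.0 CPM in smooth-muscle-like cells. After thinning every cell of the ligated library to 2000 UMIs, a C3 molecule was seen in 38.8% of 3003 fibroblast-like cells and in 4.41% of 521 pericyte-like cells, against 52.3% and 6.15% before thinning at median depths of 4016 and 2390 UMIs. Citrine pericyte-like cells carried more of it, at 369 CPM against 898 CPM in fibroblast-like cells. These cells came almost wholly from 1 heart: 180 of those given to a heart were from heart 2, 5 from heart 1 and 3 from heart 3, so no test between the classes was run. The 10 fibroblast markers summed to 24382 CPM in the citrine pericyte-like cells, against 6347 CPM and 3550 CPM in those of the ligated and undamaged tdTomato libraries, and to 61269, 48685 and 86863 CPM in the fibroblast-like cells of those libraries. Their part in the C3 values was not tested.

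Serping1 was read in every class. It reached 1841 CPM in fibroblast-like, 853 CPM in pericyte-like and 777 CPM in smooth-muscle-like cells after ligation, and 1905, 574 and 536 CPM in the same classes of undamaged hearts. The citrine values were 1903, 1015 and 1183 CPM in that order of classes, and PDGFRa fibroblast-like cells had 1380 CPM. Fibroblast-like cells were highest in each library that held several classes, and the intervals of the pericyte-like and smooth-muscle-like values overlapped in all 3 of them.

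C1s1 did not follow its partner C1ra across classes. In undamaged tdTomato cells C1s1 stood at 170 CPM in fibroblast-like, 295 CPM in pericyte-like and 355 CPM in smooth-muscle-like cells, while C1ra stood at 203, 78.1 and 97.0 CPM. The ratio of C1s1 to C1ra UMIs was therefore 0.835 (0.780 to 0.895) in fibroblast-like cells, against 3.78 (2.37 to 6.28) in pericyte-like and 3.66 (2.54 to 5.38) in smooth-muscle-like cells. After ligation the same ratio was 0.946 (0.894 to 1.00), 3.29 (2.78 to 3.92) and 2.37 (1.84 to 3.07). In the citrine library it was 1.85, 3.86 and 2.45, with overlapping intervals for smooth-muscle-like (1.43 to 4.35) and fibroblast-like cells (1.80 to 1.89). In PDGFRa fibroblast-like cells it was 2.68 (2.60 to 2.76). Ratios of 3' tags depend on chemistry and on which reads are kept, so they are compared only within a library.

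The remaining members were low. C2, the partner of C4b in the classical C3-splitting enzyme, had 4.53 CPM in ligated and 3.02 CPM in undamaged tdTomato fibroblast-like cells, 2.28 CPM in citrine and 4.48 CPM in PDGFRa cells. Cfb had 0.618 CPM in ligated and 2.46 CPM in undamaged tdTomato fibroblast-like cells, 0.862 CPM in citrine and 1.42 CPM in PDGFRa cells, and no UMI in pericyte-like or smooth-muscle-like cells. There 0 UMIs allow up to 1.26, 10.2 and 3.32 CPM in ligated, undamaged tdTomato and citrine pericyte-like cells. In smooth-muscle-like cells they allow up to 2.91, 7.66 and 17.2 CPM. Each limit exceeds the fibroblast-like value of its library, so the classes cannot be ranked for Cfb. Cfd, the protease that activates factor B and is best known from fat cells, had no UMI among 3139 ligated and 2393 undamaged tdTomato fibroblast-like cells. A count of 0 allows up to 0.206 and 0.335 CPM there (3 UMIs of the class total), and Cfd was not detectable at this depth. It had 2 UMIs in citrine and 1 UMI in PDGFRa fibroblast-like cells.

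**Figure D1:**
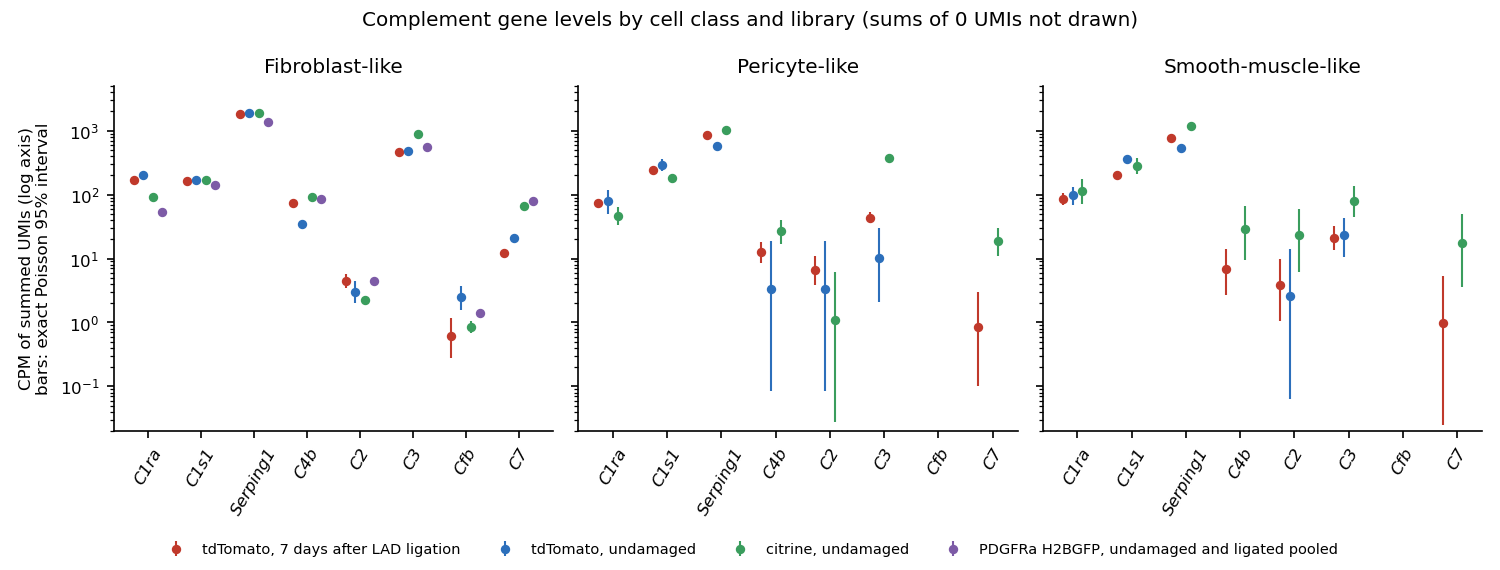
Level of each complement gene other than Cfd in CPM of summed UMIs (log axis) in fibroblast-like, pericyte-like and smooth-muscle-like cells, coloured by library, with exact Poisson 95% intervals that cover counting error only. Serping1 lies between 1380 and 1905 CPM in the fibroblast-like cells of all 4 libraries, whereas C3 in pericyte-like cells spans 10.2 to 369 CPM.

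The ligated and undamaged tdTomato libraries were compared next, within each class. Called here means past 2-fold in CPM with at least 20 UMIs in both sums together. In fibroblast-like cells 8 of the 9 genes were measured, 1 was called higher and 1 lower, and 7.42% of the 12316 genes measured were past 2-fold (3.34% higher and 4.08% lower). The median log2 ratio of the 8 was -0.06, and over all genes measured it was -0.05. C4b, the C4 that the C1 proteases cut, stood at 74.0 CPM after ligation against 34.6 CPM in undamaged hearts, a ratio of 2.14 (exact 95% interval 1.88 to 2.43). Its log2 ratio of 1.09 became 0.93, short of 2-fold, when all kept cells of each library were summed. Cfb stood at 0.618 CPM after ligation (9 UMIs) against 2.46 CPM (22 UMIs), a ratio of 0.251 (0.102 to 0.568) that rests on few molecules. C7 stood at 12.2 CPM after ligation against 21.1 CPM, a ratio of 0.576 (0.466 to 0.710) short of 2-fold.

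The abundant members differed little between the fibroblast-like cells of the 2 libraries. C3 had a ratio of 0.979 (0.942 to 1.02), C1s1 of 0.946 (0.886 to 1.01) and Serping1 of 0.966 (0.948 to 0.985). The sign of the Serping1 log2 ratio, -0.05, turned to 0.0039 when libraries were scaled by the median ratio over genes. C1ra, at 170 CPM after ligation against 203 CPM in undamaged hearts, had a ratio of 0.835 (0.786 to 0.888). C2 had 66 UMIs after ligation and 27 in undamaged hearts, with an interval of the ratio (0.947 to 2.45) that includes no difference. Pericyte and smooth muscle markers in these cells summed to 294 and 371 CPM after ligation and to 222 and 211 CPM in undamaged hearts, and their part in the ratios was not tested.

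The C4b difference was present in every kind of fibroblast-like cell that both libraries held, and activated-like cells differed in further members. Of 7 members measured in activated-like cells 4 were called higher after ligation, C4b, C2, C1s1 and C3, where 9.04% of 9839 genes were, and 1 lower, C7, where 7.57% were. In Sca1-high-like cells C4b was called higher (5.45% of 9146 genes) and none of 6 lower (3.43%), and in clusters given no state C4b was called higher (1.93% of 11528 genes) and Cfb lower (3.77%). Outside activated-like clusters as a whole, C4b was likewise called higher (2.44% of 11960 genes) and Cfb lower (4.31%). In Sca1-high-like cells (named from Ly6a, Pi16 and Dpp4) C4b stood at 35.8 CPM after ligation, against 3.37 CPM (3 UMIs) in undamaged hearts, with a ratio of 10.6 (3.53 to 52.4). In activated-like cells (Postn, Cilp and Thbs4 among the markers) it stood at 46.2 CPM after ligation, against 3.91 CPM (4 UMIs), a ratio of 11.8 (4.53 to 43.9). In clusters given no state it stood at 99.5 CPM after ligation, against 43.8 CPM, a ratio of 2.27 (1.98 to 2.61). Cfb in these clusters had 6 UMIs after ligation, against 21 UMIs. In undamaged hearts a no-state cluster of 470 cells had 8.53 CPM of Cfb, against 2.22, 0.673 and 1.27 CPM in the others. The part of this cluster in the Cfb call was not tested. C7 stood at 1.15 CPM (4 UMIs) in activated-like cells after ligation, against 32.2 CPM (33 UMIs) in undamaged hearts, while in cells given no state it stood at 14.2 against 19.7 CPM. C2 stood at 9.75 CPM (34 UMIs) in activated-like cells after ligation, against 0.977 CPM (1 UMI), and at 3.57 against 3.99 CPM in cells given no state. C3 in activated-like cells stood at 192 CPM after ligation, against 87.9 CPM in undamaged hearts, a ratio of 2.19 (1.75 to 2.76). C1s1 there stood at 92.6 CPM after ligation, against 42.0 CPM, a ratio of 2.20 (1.60 to 3.11). These clusters were formed in each library on its own, so an activated-like cluster after ligation need not match the one in undamaged hearts.

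In pericyte-like cells 5 of the 9 genes were measured and 2 were called higher, C3 and C4b, where 16.8% of 8917 genes were past 2-fold (10.6% higher and 6.21% lower). C3 had 43.4 CPM after ligation (103 UMIs) against 10.2 CPM (3 UMIs), a ratio of 4.26 with a wide interval (1.42 to 21.0). C4b had 30 UMIs after ligation and 1 UMI in undamaged hearts, a ratio of 3.72 whose interval (0.619 to 152) includes no difference. In the ligated clusters of 477 and 286 cells it stood at 1.96 and 13.1 CPM, against 12.6 CPM in the class. Serping1 had 853 CPM after ligation against 574 CPM, a ratio of 1.49 (1.27 to 1.75). The ligated cluster of 477 cells lay below the undamaged value, at 462 CPM. The ligated cluster of 286 cells, led by Rgs16, Stc1 and Sele, lay above it, at 1063 CPM. The fibroblast markers summed to 6347 CPM in pericyte-like cells after ligation and to 3550 CPM in those of undamaged hearts, whose median depths were 2390 and 1571 UMIs, and the part of either in these ratios was not tested. In smooth-muscle-like cells 4 were measured and none was called, where 12% of 6678 genes were past 2-fold (7.79% higher and 4.22% lower). Serping1 there had 777 CPM after ligation against 536 CPM, a ratio of 1.45 (1.24 to 1.69). The fibroblast markers summed to 3059 CPM in these cells after ligation and to 2181 CPM in those of undamaged hearts, and their part in this ratio was not tested. C1s1 there had 205 CPM after ligation against 355 CPM, a ratio of 0.576 (0.463 to 0.719).

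**Figure D2:**
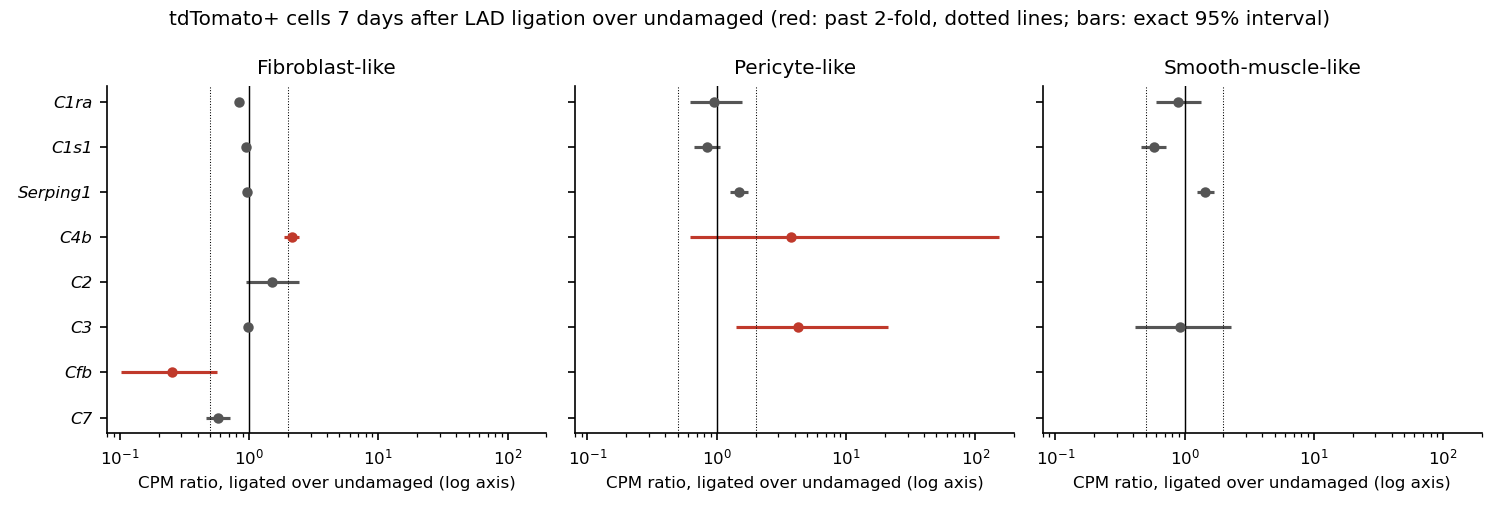
CPM ratio of ligated over undamaged tdTomato cells (log axis) for each measured gene, by cell class, with exact 95% intervals for counting error and dotted lines at 2-fold. C4b in fibroblast-like cells lies at 2.14, while C3, C1s1 and Serping1 there lie between 0.946 and 0.979.

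The 3 hashed citrine hearts allowed tests of fibroblast-like states against the other fibroblast-like cells of the same hearts. Of the 10454 fibroblast-like cells, 3760 could be given to no heart and were left out of these tests. At a 90% hashtag share 7456 were left out. Clusters were made without any complement gene, and each heart gave 1 sum of UMIs per state (edgeR's quasi-likelihood test with heart as a block, Benjamini-Hochberg adjusted over all genes). States were nevertheless cut from the same cells that were compared, so the tests are not independent of the clustering. In all, 26.1% of 11497 genes were called for Sca1-high-like cells (12.3% higher and 13.8% lower) and 21.4% of 11508 for activated-like cells (11.2% higher and 10.2% lower).

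Sca1-high-like cells of these hearts had less C1s1, C1ra, C4b and C2, while C3, Serping1 and C7 did not pass the test. Of 7 members tested, 4 fell and none rose. C1s1 had 87.1, 53.2 and 76.4 CPM in the Sca1-high-like cells of hearts 1 to 3, against 197, 171 and 175 CPM in the other fibroblast-like cells. All 3 state values lay below all 3 others, and the log2 fold change was -1.33 ± 0.09 (SE, n = 3 hearts, edgeR adjusted p = 4.42e-12). C1ra had 65.4, 38.2 and 55.2 CPM, against 109, 97.9 and 96.2 CPM, again without overlap (log2 fold change -0.94 ± 0.10, edgeR adjusted p = 2.64e-08). C4b had 33.6, 11.4 and 18.9 CPM, against 137, 91.4 and 118 CPM, a log2 fold change of -2.55 ± 0.12 (edgeR adjusted p = 7.19e-15). C2 had no UMI in the Sca1-high-like cells of hearts 1 and 2 and 0.331 CPM in heart 3, against 8.43, 1.54 and 2.28 CPM, and was called lower (edgeR adjusted p = 0.000386), with a fold that depends on how a count of 0 is treated. This call is lost without the heart block (edgeR adjusted p = 0.0881). A citrine cluster of 816 cells with Dpp4 and Cd248, both Sca1-high markers, among its leading genes was given no state. It counted among the other fibroblast-like cells, with C1s1 at 189 CPM, C1ra at 95.1 CPM and C4b at 53.4 CPM. Its C3, at 1418 CPM, was the highest of the 13 citrine fibroblast-like clusters of at least 50 cells. The part of this cluster in these comparisons was not tested.

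C3, in contrast, had 1222, 884 and 791 CPM in Sca1-high-like cells, against 1075, 823 and 769 CPM in the others, higher in 3 of 3 hearts but with overlapping groups (log2 fold change 0.11 ± 0.05, edgeR adjusted p = 0.136). Serping1 averaged 1930 ± 48.9 CPM in Sca1-high-like cells and 1943 ± 123 CPM in the others (SD, n = 3 hearts), with an interval of the log2 difference of -0.11 to 0.10 (edgeR adjusted p = 0.971). C7 averaged 58.1 ± 10.1 CPM in Sca1-high-like cells and 63.8 ± 16.1 CPM in the others (edgeR adjusted p = 0.477).

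In activated-like citrine cells 6 of the 7 members tested fell and C7 rose. The 978 cells of this cluster met the marker rules of both the activated and the Wif1 lists. C3 had 368, 284 and 291 CPM in activated-like cells, against 1192, 898 and 832 CPM in the other fibroblast-like cells (log2 fold change -1.63 ± 0.05, edgeR adjusted p = 5.87e-12). C1s1 averaged 77.2 ± 9.87 CPM, against 182 ± 17.4 CPM, with a log2 fold change of -1.23 ± 0.08 (edgeR adjusted p = 3.58e-08). C1ra averaged 45.3 ± 2.78 CPM, against 103 ± 8.80 CPM, a log2 fold change of -1.18 ± 0.08 (edgeR adjusted p = 4.74e-08). For these 3 genes the highest activated-like heart lay below the lowest value of the others.

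Serping1 fell less, with 1575, 1430 and 1497 CPM in activated-like cells, against 2141, 1936 and 1928 CPM (log2 fold change -0.42 ± 0.04, edgeR adjusted p = 9.64e-07). C4b fell by 0.82 ± 0.11 on the log2 scale (edgeR adjusted p = 4.68e-05), and its call is lost at a 90% hashtag share (log2 fold change -0.34, edgeR adjusted p = 0.280, where its alternatives ranged from 1.25e-23 to 0.280). C2 had 2.17, 0.668 and 0.430 CPM, against 8.37, 1.53 and 2.20 CPM (edgeR adjusted p = 0.0126), and its call is lost without the heart block (adjusted p = 0.297) or without heart 1 (0.143) or heart 3 (0.0619). C7, which joins the membrane pore, had 152, 80.5 and 95.9 CPM in activated-like cells, against 70.5, 55.3 and 45.2 CPM, higher in 3 of 3 hearts (log2 fold change 0.89 ± 0.10, edgeR adjusted p = 8.97e-06). Activated-like cells were deeper, with a median of 10564.5 UMIs against 8005 in the others, and the part of depth was not tested.

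Interferon-like citrine cells had no member called out of 8 tested, where 1.84% of 11358 genes were called (1.5% higher and 0.343% lower). At an unadjusted p under 0.05 there were 3, namely C7, C4b and C1ra. C7 had 103, 98.2 and 61.5 CPM in interferon-like cells, against 79.6, 57.4 and 50.5 CPM (log2 fold change 0.50 ± 0.14, edgeR adjusted p = 0.117). C4b had 210, 71.6 and 144 CPM, against 123, 85.6 and 102 CPM, with hearts on both sides (edgeR adjusted p = 0.260). DESeq2 also called none of the 8. The precision was limited: the 95% interval of the log2 fold change was 0.20 to 0.79 for C7, -0.45 to 2.03 for C2 and -1.73 to 2.72 for Cfb, so that a 2-fold rise of C2 or Cfb lies within theirs.

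**Figure D3:**
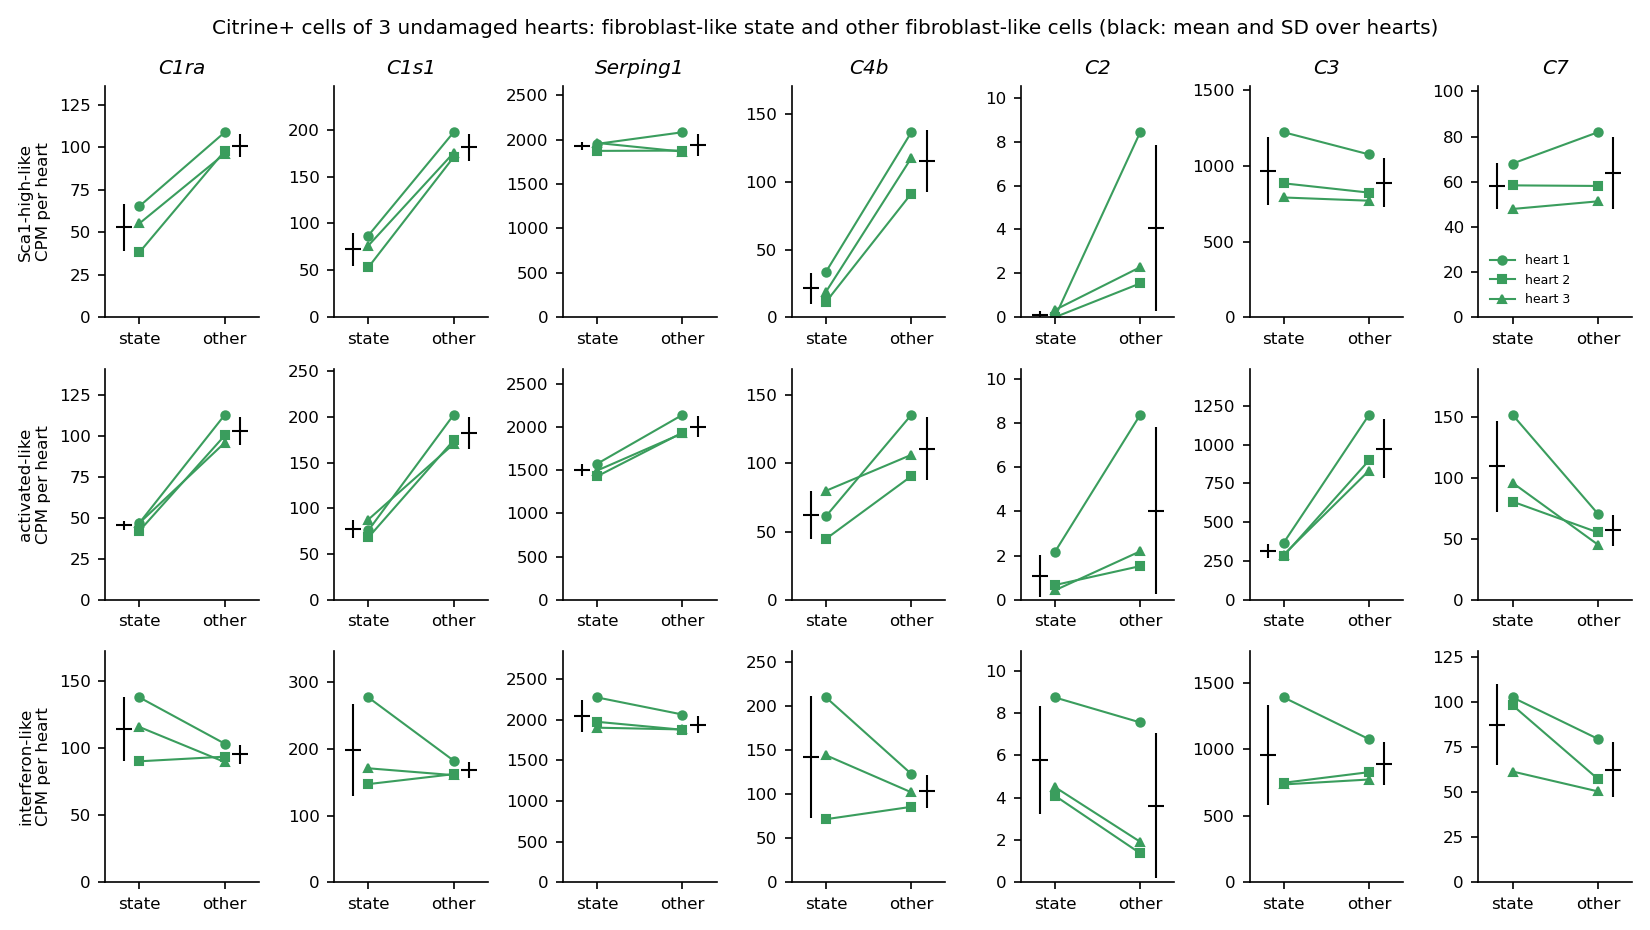
CPM of 7 complement genes in each of the 3 citrine hearts, in a fibroblast-like state (left of each panel) and in the other fibroblast-like cells (right), with mean and SD over hearts in black. C4b in Sca1-high-like cells lies at 11.4 to 33.6 CPM in the 3 hearts, below the 91.4 to 137 CPM of the other cells.

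The whole hearts varied too. Over fibroblast-like cells of hearts 1 to 3, C3 ranged from 773 to 1090 CPM, Serping1 from 1877 to 2071 CPM and C1s1 from 161 to 186 CPM. C2 and Cfb were the members whose highest heart was at least 2-fold the lowest, at 5.33-fold and 3.17-fold, where 7% of 13364 genes varied that much.

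The same states were then followed in the libraries without replicates of a known condition, where no test was made. In the undamaged tdTomato library Sca1-high-like cells had 4 of 8 measured members past 2-fold lower (11.8% of genes) and none higher (3.62%). Among these 4, C2 (0 UMIs) and Cfb (1 UMI) had ratio intervals that include no difference. In the ligated library 2 of 7 were lower (6.65% of genes) and 1 higher, C7 (2.27% of genes). C4b in Sca1-high-like cells over the others had a ratio of 0.432 (0.347 to 0.532) after ligation and of 0.0885 (0.0182 to 0.261) in undamaged hearts. In the PDGFRa library 3 of 8 were lower (12.2% of genes), C2, C4b and Cfb, and none higher (3.67%). C3 in its Sca1-high-like cells stood at 979 CPM, against 494 CPM in the other fibroblast-like cells, and C7 at 139 CPM against 72.3 CPM. C1s1 and C1ra in Sca1-high-like cells over the others had ratios of 0.889 and 0.830 in the PDGFRa library. The same ratios were 0.678 and 0.761 after ligation and 0.405 and 0.595 in undamaged tdTomato hearts. Activated-like cells had 3 of 7 measured members past 2-fold lower after ligation (8.15% of genes) and 1 higher, C2 (7.12% of genes). In undamaged tdTomato hearts 6 of 8 were lower (8.51%) with none higher (4.23%). Among these 6, C2 (1 UMI) and Cfb (0 UMIs) had ratio intervals that include no difference. In the PDGFRa library 6 of 8 were lower (13.8%) and none higher (6.15%). C3 in activated-like cells had a ratio to the others of 0.348 (0.321 to 0.377) after ligation and of 0.167 (0.134 to 0.206) in undamaged hearts. Serping1 there had ratios of 0.514 and 0.549.

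C7 in activated-like cells differed in direction between libraries. It had a ratio to the other fibroblast-like cells of 0.0734 (0.0198 to 0.191) after ligation, against 1.64 (1.09 to 2.40) in undamaged tdTomato hearts. It was 1.72 (1.61 to 1.83) in the undamaged citrine library. The difference between libraries was not tested, and in the PDGFRa library, which mixes both conditions, the ratio was 0.0608 (0.0506 to 0.0723). The name covers unlike clusters. The undamaged tdTomato one was led by Atp6v0a4, Dio2 and Cst6, the citrine one by Thbs4, Dio2 and Atp6v0a4. The ligated one was led by Ddah1, Cthrc1 and H19, the PDGFRa one by C1qtnf3, Scx and Spp1. A PDGFRa cluster of 938 cells with Dio2, Cst6 and Atp6v0a4 among its leading genes took no state name and had 167 CPM of C7.

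Wif1-like cells (named from Wif1, Comp and Fmod among others) differed between libraries, and the name covers unlike clusters. The undamaged tdTomato cluster was led by Wif1, Cyp26a1 and Fmod, the PDGFRa cluster by Cytl1, Igfbp3 and Gdf10, and the citrine ones by Thbs4 and Dio2 or by Igfbp3 and Cytl1. Values of Wif1-like cells are therefore given for each library on its own. In the undamaged tdTomato library 7 of 8 measured members were past 2-fold lower in them (14.9% of genes) and none was higher (6.75%). Among the 7, C2 and Cfb had 0 UMIs, with ratio intervals (0 to 2.34 and 0 to 2.92) that include no difference. C1s1 stood at 13.3 CPM, against 179 CPM in the other fibroblast-like cells, C1ra at 49.4 against 213 CPM, and C3 at 72.2 against 501 CPM. In the PDGFRa library 3 of 8 were past 2-fold higher (6.76% of genes), C7, C4b and Cfb, and none was lower (11.2%). C7 stood at 355 CPM in Wif1-like cells, against 71.8 CPM, C4b at 259 against 80.4 CPM, and C3 at 834 against 544 CPM. In the citrine library, where 978 of the 1581 Wif1-like cells were also activated-like, C2 was higher in Wif1-like cells of 3 of 3 hearts, at 24.3, 3.75 and 3.77 CPM against 2.77, 0.969 and 1.68 CPM. Over the whole library the 978 cells had 0.635 CPM of C2 and the 603 that were Wif1-like alone 20.3 CPM. Igfbp3, Aox3 and Rbp4, which were among the leading genes of the PDGFRa cluster, also led an undamaged tdTomato cluster of 470 cells that was given no state. That cluster had the highest C2 (9.75 CPM), Cfb (8.53 CPM), C4b (95.1 CPM) and C3 (641 CPM) of the 7 fibroblast-like clusters compared in its library. No ligated tdTomato cluster took the Wif1-like name.

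On the same 2-fold rule over whole libraries, citrine Sca1-high-like cells had 4 of 8 members lower (11.4% of genes) and none higher (3.33%), and citrine activated-like cells 4 lower (6.85%) and none higher (4.39%). Citrine Wif1-like cells had C2 and Cfb higher (5.85% of genes) and C3 lower (4.01%). Interferon-like cells differed in few members. C2 was higher in those of the citrine library (3.21% of genes), at 5.21 CPM against 2.20 CPM in the other fibroblast-like cells, with no member lower (10.1%). C2 was also higher in those of the PDGFRa library (3.61% of genes), at 10.00 CPM against 4.31 CPM, and Cfb was lower there (8.84%) on 2 UMIs. In all, 21 ligated tdTomato cells were interferon-like. Of 7 members measured C2 met the 2-fold rule as lower, at 0 UMIs (34.6% of genes), and none was higher (12.4%). The C2 ratio interval, 0 to 8.89, includes no difference, and a count of 0 allows up to 32.1 CPM in these cells.

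**Figure D4:**
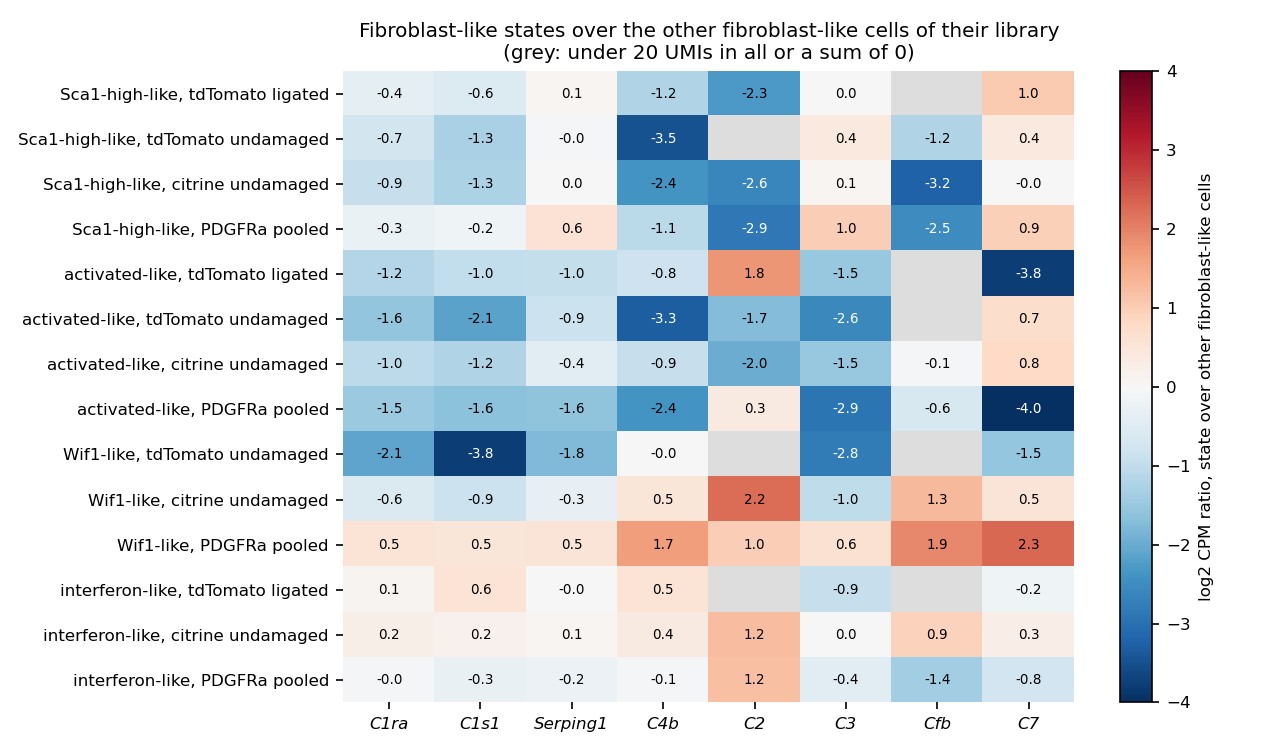
Log2 CPM ratio of each fibroblast-like state over the other fibroblast-like cells of the same library for 8 complement genes, with grey where fewer than 20 UMIs or a sum of 0 was found. Activated-like clusters are below 0 for C1ra, C1s1, Serping1, C4b and C3 in all 4 libraries, whereas C7 is above 0 in 2 libraries and below 0 in the other 2. The activated-like name covers clusters with unlike leading genes.

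In the PDGFRa library each hashtag is 1 heart of unstated condition, and values are given without a test. Cells given to hashtags 1 to 4 included 2841, 3590, 982 and 1645 fibroblast-like cells. C7 had 46.1, 40.7, 140 and 188 CPM in hashtags 1 to 4, a 4.62-fold span. C4b had 111, 85.4, 115 and 52.2 CPM and C2 6.17, 5.62, 2.55 and 2.05 CPM. These 3 were the members whose highest hashtag was at least 2-fold the lowest, where 28.1% of 13832 genes varied that much. Cfb spanned 1.87-fold and made the count 4 under each alternative tried, at 3.06-fold with a 90% hashtag share, 2.27-fold with hashtags called over their own background and 2.01-fold over all cells. C3 had 489, 430, 766 and 765 CPM, and Serping1 1281, 1184, 1730 and 1736 CPM, so that hashtags 3 and 4 were near each other and above hashtags 1 and 2. C1ra spanned 48.3 to 63.7 CPM and C1s1 131 to 168 CPM.

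The hashtags also differed in their make-up. Activated-like cells numbered 437 in hashtag 1, 597 in hashtag 2 and none in hashtags 3 and 4. In clusters given no state, C7 had 52.6, 47.4, 121 and 156 CPM in hashtags 1 to 4, while C3 had 603, 530, 651 and 697 CPM, a narrower span of 1.32-fold. C4b in these cells had 144, 117, 76.3 and 43.7 CPM. In the Sca1-high-like cells C4b had 95.5, 40.7, 76.3 and 8.08 CPM.

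Within hashtags 1 and 2, the activated-like cells were again low in most members. C3 had 89.5 and 82.6 CPM in activated-like cells of hashtags 1 and 2, against 618 and 554 CPM in the other fibroblast-like cells of the same hashtags. Serping1 had 509 and 510 CPM, against 1532 and 1424 CPM. C7 had 2.77 and 7.40 CPM, against 60.1 and 52.5 CPM. C1s1 had 54.5 and 52.9 CPM, against 171 and 159 CPM. C2 had 5.41 and 5.86 CPM, against 6.41 and 5.54 CPM, with hashtags on both sides. Over the whole library these activated-like cells were deeper, at a median of 17668 UMIs against 7331, and the part of depth was not tested.

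**Figure D5:**
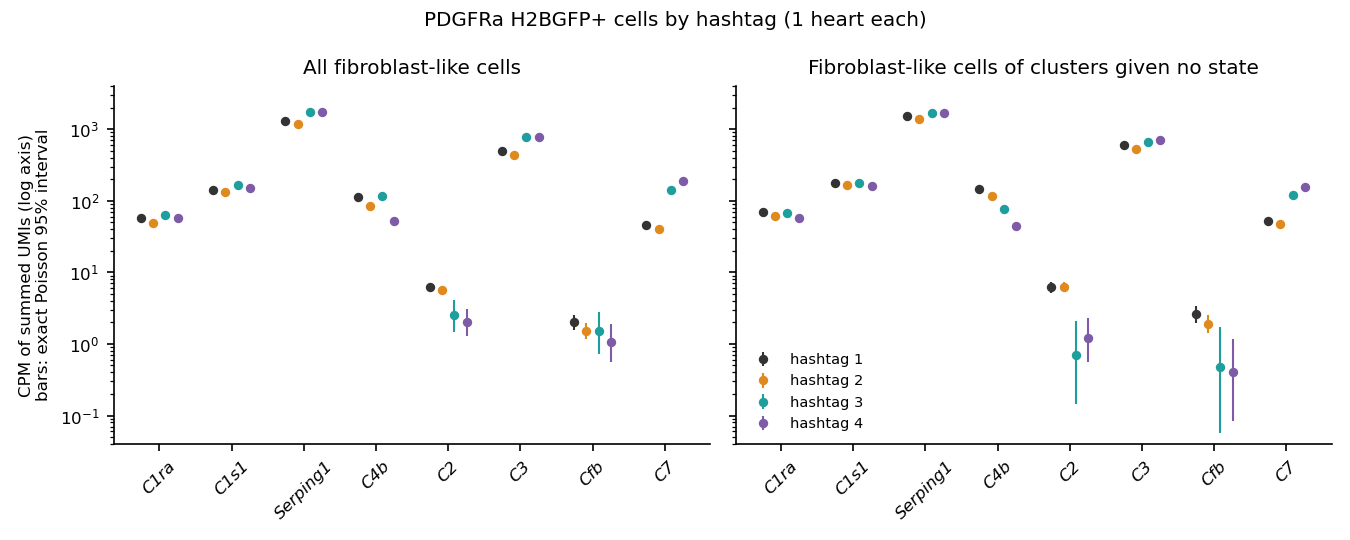
CPM (log axis) of 8 complement genes in PDGFRa H2BGFP+ fibroblast-like cells by hashtag, in all such cells (left) and in clusters given no state (right), with exact Poisson 95% intervals for counting error. C7 lies at 46.1 and 40.7 CPM in hashtags 1 and 2 and at 140 and 188 CPM in hashtags 3 and 4.

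Genes whose pattern over clusters was most like each member were found from 48 clusters of at least 50 cells in all 4 libraries (Pearson's r of log2(CPM + 10) centred within each library, over 5973 genes). Clusters of a library share its depth and hearts, so r is a description only. Serping1 was most like Dpep1 (r = 0.927), C3 most like Clec3b (0.878), C4b most like Apoe (0.862), C7 most like Gstm1 (0.838) and C1ra most like Col6a6 (0.828). C1s1 had the weakest best match, St5 (0.751). Among the members, Serping1 and C3 were closest (0.821), and C1ra was closer to Serping1 (0.779) and C3 (0.742) than to C1s1 (0.572). C2, Cfb and Cfd stayed under 50 CPM in every cluster and were not compared.

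Other complement genes were taken from a list of 50, of which 49 had a feature, chosen with earlier results of these data known. In ligated over undamaged tdTomato fibroblast-like cells 18 were measured, 2 were called higher (3.34% of all genes) and 2 lower (4.08%), with a median log2 ratio of -0.05, as over all genes measured. The 2 higher were C1s2, the near-copy of C1s1, with 30 against 5 UMIs, and Cfi, the protease that inactivates C3b, with 30 against 1 UMI. C1s2 has 2 features of that name, and only the first was counted. The 2 lower were Cd59a, a blocker of the membrane pore, at 8.31 CPM after ligation against 18.9 CPM, and Clu (clusterin) with 160 against 202 UMIs (ratio 0.487, 0.393 to 0.602). Cd59a was also lower in each kind of fibroblast-like cell that both libraries held, with ratios of 0.391 in cells given no state, 0.429 in Sca1-high-like and 0.386 in activated-like cells. Clu was not: of the 202 undamaged UMIs, 136 came from 123 Wif1-like cells, a name that no ligated cluster took. In cells given no state Clu ran the other way, with 35 UMIs after ligation against 14 (ratio 2.00, 1.05 to 4.03), while in activated-like cells its ratio was 0.652 (0.463 to 0.929). Cd55, which speeds decay of the C3-splitting enzymes, stood at 152 CPM after ligation against 213 CPM.

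In the citrine hearts 13 of the listed genes were tested, and in Sca1-high-like cells 2 rose (12.3% of all genes) and 6 fell (13.8%). Cd55 had 904, 902 and 937 CPM in Sca1-high-like cells of hearts 1 to 3, against 215, 243 and 245 CPM in the others, with a log2 fold change of 1.96 ± 0.06 (edgeR adjusted p = 2.00e-19). Clu fell by 1.76 ± 0.27 on the log2 scale (edgeR adjusted p = 9.60e-06). In activated-like cells 4 rose (11.2% of all genes) and 3 fell (10.2%). Clu rose by 3.02 ± 0.33 on the log2 scale (edgeR adjusted p = 5.70e-06) and Cd59a by 1.31 ± 0.18 (edgeR adjusted p = 7.24e-05). In interferon-like cells 2 fell, Cd55 and Clu (0.343% of all genes), and none rose (1.5%). In pericyte-like cells 7 were measured after ligation and 1 was called higher, Cd55 (23 against 1 UMI), with a ratio of 2.85 whose interval (0.463 to 118) includes no difference, where 10.6% of all genes were higher and 6.21% lower. In smooth-muscle-like cells 7 were measured and none called (7.79% of all genes higher and 4.22% lower). Vtn (vitronectin, which binds the terminal complex and is also one of the pericyte markers) stood at 2063 CPM in pericyte-like cells after ligation, against 3618 CPM in undamaged hearts. Colec12 stood at 95.8 CPM in fibroblast-like cells after ligation, against 148 CPM, and Cr1l, a membrane regulator, at 87.1 against 119 CPM. Colec11, a collectin that starts the lectin pathway, stood at 2195 CPM in ligated and 2633 CPM in undamaged tdTomato pericyte-like cells, against 20.4 and 14.2 CPM in the fibroblast-like cells of these libraries.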

How the data were processed

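UMI count tables per gene and cell were deposited by the authors for 4 libraries made with a Chromium 3' kit. Per the submitters' processing notes, Cell Ranger, Seurat 2.1 and a modified mm10 were used, and Cell Ranger 3.0.2 stands in the file headers of the hashed libraries. The deposited counts, with antibody hashtag counts beside them where hashed, were not normalized.

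Barcodes needed 500 genes, 1000 UMIs and no more than 10% of UMIs from mitochondrial genes. Clusters were made separately per library (scanpy 1.11.5, 2000 variable genes, 30 components, 20 neighbours, Leiden resolution 1) without any complement gene, and clusters were named from fixed markers. Cells of clusters high in cell-cycle markers were instead given a class cell by cell, by the share of its markers seen. Scrublet marked 39 and 3 cells of the ligated and undamaged tdTomato libraries, none of the citrine library and 1 of the PDGFRa library, so it did not work in the hashed libraries, and no cell was removed by it. A cell went to the hashtag with at least 70% of its hashtag UMIs, given at least 10. Levels are CPM of UMIs summed over cells, with exact Poisson intervals. Ratios have exact conditional intervals. Per-heart citrine sums were tested with edgeR 4.0.16 (R 4.3.3; quasi-likelihood, TMM, filterByExpr, heart as a block) and Benjamini-Hochberg adjustment over all genes, called at 0.05. The block was used because both sums come from the same heart, and same-heart deviations correlated at 0.117 to 0.254. No pericyte-like test was run, since 2 hearts had fewer than 10 such cells. The tests were tried on simulated counts.

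The 9 genes, the other lists and the markers were chosen with earlier results of these data known. All 9 are named in the text, as are other complement genes at 50 CPM or more or called in a comparison, in part as counts, except for results on the list that are not reported here. Alternatives were DESeq2 1.42.0, other scalings, filters, resolutions and hashtag rules, and leaving out each heart.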

Additional observations from a re-analysis of the deposited data

Results flagged for a closer look

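Summed over each cell class, Serping1 differed in opposite directions between classes of the same pair of libraries. Its ligated over undamaged ratio was 1.49 in pericyte-like cells, against 0.966 in fibroblast-like cells. The ligated pericyte-like clusters were split: that of 477 cells stood at 462 CPM and that of 286 cells at 1063 CPM. Pericyte-like cells of undamaged hearts had 574 CPM. In smooth-muscle-like cells the ratio was 1.45, against the same 0.966. The fibroblast markers summed to 6347 CPM in pericyte-like cells after ligation, against 3550 CPM in undamaged hearts, and to 3059 CPM in smooth-muscle-like cells, against 2181 CPM, and their part in these ratios was not tested. With 1 library per condition the difference between classes was not tested. The fibroblast-like value lay close to 1, and its log2 ratio of -0.05 became 0.0039 when libraries were scaled by the median ratio over genes and 0.05 without activated-like clusters.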

How the results depend on the processing

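There were 477 alternative values of single members and of counts of all genes called. Of these, 425 kept their direction and side of the threshold or moved by less than their error. A call was lost in 6 and gained in 6, 28 moved, and 12 of the citrine tests changed sign. Ligated over undamaged ratios short of 2-fold were not counted as changing sign, though some did. In fibroblast-like cells their log2 values ranged from -0.37 to 0.10 for C1ra and from -0.36 to 0.10 for C3. The count of members past 2-fold after ligation in fibroblast-like cells, 2, became 1 with at least 100 UMIs, with all kept cells (where C4b fell short, at a log2 ratio of 0.93), or with Sca1-high-like cells only, the last chosen after seeing the data. In pericyte-like cells 2 became 1 with at least 100 UMIs or with the mean of per-cell CPM. In smooth-muscle-like cells 0 became 2 with no minimum of UMIs and 1 without Scrublet doublets. Interferon-like calls, 0, became 1 with no filter beyond 1 UMI or at Leiden resolution 0.5, and ranged from 0 to 1 over leaving out each heart: C4b was called without heart 2 (adjusted p = 0.00775, edgeR).

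Changes of sign in the citrine tests all concerned members that were not called. In Sca1-high-like cells the log2 fold change of Serping1 was 0.0049 with DESeq2's size factors, 0.0047 with DESeq2, -0.045 to 0.049 over leaving out each heart (positive without heart 1) and 0.020 with hashtags called over their own background (a rule chosen after seeing the data), and that of C7 was 0.098 at a 90% hashtag share and 0.12 at Leiden resolution 2. In interferon-like cells leaving out each heart gave -0.00099 to 0.39 for C1s1 and -0.099 to 0.19 for C3 (both negative without heart 1) and -0.52 to 0.87 for Cfb (negative without heart 3). C4b was at -0.13 at a 90% share, and C3 at -0.073 at a 90% share and -0.0070 with the background rule. C3 in Sca1-high-like cells was called higher at Leiden resolution 0.5 (edgeR adjusted p = 0.0361) and 2 (0.000797) and at 5% mitochondrial UMIs (0.0201). C4b in activated-like cells lost its call at a 90% share (0.280) and C2 with DESeq2 (0.162). Without the replicate block, the C2 calls were lost in Sca1-high-like (0.0881) and activated-like cells (0.297), and no other member's call changed. Genes called in all fell to 1723 with DESeq2 and 1740 at a 90% share, against 2998, for Sca1-high-like cells. For activated-like cells they fell to 1402 with DESeq2, 1493 without heart 2 and 1212 at a 90% share, against 2461. For interferon-like cells they fell to 103 at a 90% share, against 209. The causes were not tested.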

Other observations

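Clusters that took no class name held some of the complement signal. A PDGFRa cluster of 65 cells, led by Cxcl13, Saa3, Dmkn and Wt1, had 969 CPM of C3, 33.4 CPM of C2, 12.6 CPM of Cfb and 1947 CPM of Clu. Fibroblast-like cells of that library had 553 CPM of C3, 4.48 CPM of C2 and 1.42 CPM of Cfb. Its cells had a median of 18764 UMIs. A citrine cluster of 164 cells had 2687 CPM of C3 and 306 CPM of C4b at a median of only 2049.5 UMIs, and Lars2 and Gm42418 were among its leading genes.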
